A study of Homo sapiens with 37 samples.

Results

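Among 26 K562 libraries labelled KO, 10 held the highest counts of SLC2A1, the gene of glucose transporter 1, and these 10 of 37 libraries in all fell into a group of 6 with more ENO2 and a group of 4 with less. The members were selected on measured values: counts were scaled to the total of their library, as CPM, the KO libraries were ranked by SLC2A1 and the first 10 were taken. These were then ranked by ENO2, and the first 6 are called ENO2-high and the last 4 ENO2-low. Of the remaining libraries, 16 are labelled KO and 11 Control. K562 is an established human erythroleukemia line, and its ZBTB7A gene, which codes for a zinc finger transcription repressor, had been disrupted with Cas9 and 1 of 2 gRNAs in the KO cells, whereas the Control cells had received an empty vector. In both arms single cells had been sorted and expanded, and the libraries were made from lysates of cultured cells. The labels give neither the clone nor the gRNA or day of a library, so libraries of a side may be repeats of 1 clone, and any p-value measures only the spread between these libraries. ZBTB7A counts do not check the labels, because small Cas9 lesions in the coding sequence leave the counted 3′ end in place.

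Glycolysis splits glucose into pyruvate. Glucose transporter 1 brings the sugar across the cell membrane, and enolase converts 2-phosphoglycerate to phosphoenolpyruvate near the end of the pathway. Enolase exists as isozymes: ENO1 is the ubiquitous form, ENO2 (gamma enolase) is known from neurons and neuroendocrine cells and is often raised in tumor cells, and ENO3 is the muscle form. K562 cells have features of erythroid and megakaryocyte precursors and carry many chromosome rearrangements.

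Each library is named by the barcode of its well, which was part of the primer that started cDNA synthesis. The 10 barcodes are shown because their base composition differed between the sides. They are written 5′ to 3′, with G and C in capitals, in the order of ENO2 CPM. In the text a library is called by its barcode in full capitals.
ENO2-high library 1: atCaaa
ENO2-high library 2: attaCt
ENO2-high library 3: tGttta
ENO2-high library 4: ttaGtt
ENO2-high library 5: taaGat
ENO2-high library 6: CCCtGG
ENO2-low library 1: CGtGGG
ENO2-low library 2: CCCaCG
ENO2-low library 3: CCGGaC
ENO2-low library 4: GttCGa

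The ENO2-high barcodes held 1 G or C in 5 libraries and 5 in library CCCTGG. Those of the ENO2-low side held 5 in 3 libraries and 3 in library GTTCGA. The means were 1.67 and 4.5 bases, a difference of -2.83 (exact permutation test over 210 splits, two-sided, p = 0.0476). Leaving out any 1 of the 5 AT-rich ENO2-high libraries gave p = 0.0794. Barcode composition thus went with the sides, except in library CCCTGG, the only one of the ENO2-high side with a GC-rich barcode, whose values are given separately below.

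The sides overlapped in depth. The ENO2-high libraries held 1739390 (ATCAAA), 2052701 (ATTACT), 1225590 (TGTTTA), 1545766 (TTAGTT), 1558010 (TAAGAT) and 1430376 (CCCTGG) unique molecules. The ENO2-low libraries held 1070250 (CGTGGG), 1524483 (CCCACG), 1707977 (CCGGAC) and 2164774 (GTTCGA). The means of 1591972 and 1616871 differed by -24899 (exact permutation test, two-sided, p = 0.905), and both the shallowest and the deepest library were on the ENO2-low side. All 10 were shallower than the median of the other KO libraries, 2603533, and of the Control libraries, 3518944.

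ENO2 lies on chromosome 12 from 6913745 to 6923698 (hg38, plus strand) and SLC2A1 on chromosome 1 from 42925353 to 42958893 (minus strand). ENO2 was counted 70, 82, 48, 60, 60 and 55 times in the ENO2-high libraries, which is 40.2, 39.9, 39.2, 38.82, 38.5 and 38.5 CPM in the order given above. In the ENO2-low libraries it was counted 37, 35, 39 and 48 times, which is 34.6, 22.96, 22.8 and 22.2 CPM. The ENO2-high side was thus tight, whereas library CGTGGG stood apart from the other 3 of its side and next to the boundary. Its exact Poisson interval at 95%, 24.3 to 47.7 CPM, held all 6 values of the ENO2-high side, so ENO2 alone did not place this library at its depth (the intervals cover counting error only). ENO2 was 9.48 CPM at the median of the other KO libraries and 3.40 CPM at the median of the Control libraries.

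SLC2A1 did not separate the sides. It ranged from 587 to 635 CPM on the ENO2-high side and was 616, 617, 605 and 561 CPM on the ENO2-low side. The last library taken, GTTCGA at 561 CPM, stood well above the first left out, at 405 CPM, whereas the ENO2 boundary ran between 38.5 CPM (CCCTGG) and 34.6 CPM (CGTGGG). No test is given for either gene, as they chose the libraries.

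**Figure D1:**
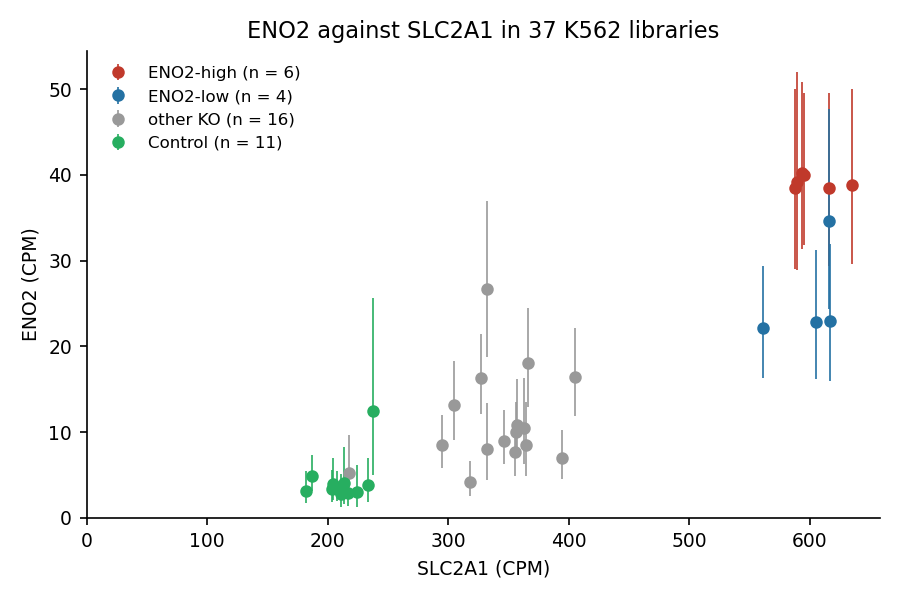
ENO2 (vertical axis, CPM) against SLC2A1 (horizontal axis, CPM) in each of the 37 libraries, with exact Poisson intervals at 95% as bars. The 10 libraries stand apart to the right of all others, with 6 between 38.5 and 40.2 CPM of ENO2 and 4 between 22.2 and 34.6 CPM.

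The 10 libraries also sorted by their whole profiles. Each pair was compared by a chi-square test of counts, using the genes that reached 10 in the pair. The ratio of chi-square to its degrees of freedom was 1.14 to 1.67 for the 15 pairs within ENO2-high, 1.37 to 1.73 for the 6 pairs within ENO2-low and 4.02 to 5.84 for the 24 pairs across the sides. A ratio of 1 is counting noise alone, and every pair exceeded it, so no libraries were merged. As a description across genes, which are not independent, the deviations of the libraries from the mean of all KO libraries correlated at 0.63 to 0.73 within ENO2-high, 0.52 to 0.62 within ENO2-low and -0.16 to -0.03 across. Library CCCTGG correlated at 0.64 to 0.68 with the AT-rich libraries of its side and at -0.14 to -0.07 with the ENO2-low side, where 3 of 4 barcodes are as GC-rich. Library CGTGGG, whose ENO2 was closest to the boundary, thus went with its own side in its whole profile.

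A gene is called separated here where the ranges of its log2 CPM in the 6 and the 4 libraries, normalized over these 10, did not overlap and the fitted log2 fold change, ENO2-high over ENO2-low, exceeded 0.5 in size. Because the sides were chosen on expression, this is a description without p-values, and CPM of genes are given after TMM scaling over all 37 libraries from here on. Of 9780 genes that passed the filter on low counts, 1128 were separated (11.5%), 444 of them higher (4.54%) and 684 lower (6.99%) in ENO2-high. The median log2 fold change of all 9780 genes was -0.001. Libraries with a GC-rich barcode alone, CCCTGG against 3 ENO2-low libraries, were also fitted. There the median log2 fold change was 0.86 for the genes higher in ENO2-high and -0.84 for those lower. Over all 10 libraries these medians were 0.85 and -0.82. As these libraries are part of the 10, ranges apart in the 10 stay apart here except for rescaling, and the direction is fixed too.

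Of the 15 genes most strongly higher in ENO2-high, the most abundant there was MAGEA4, a cancer-testis antigen gene on chromosome X. It was at 504, 542, 591, 539.7, 554 and 615 CPM in the ENO2-high libraries and at 14.2, 21.8, 11.9 and 20.5 CPM in the ENO2-low libraries, a log2 fold change of 4.98 ± 0.10 (SE). The ENO2-low values lay within or close to the Control range of 11.98 to 26.1 CPM, and 4 of the 16 other KO libraries were above that range. MAPK4, an atypical MAP kinase gene, was at 15.6 to 23.8 CPM in ENO2-high and was counted 0, 1, 0 and 1 times in ENO2-low, too few for a fold change.

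PYCARD, the adaptor of the inflammasome, was at 41.3, 42.1 and 46.1 CPM (lowest, median and highest) in ENO2-high and at 7.10, 4.97, 6.23 and 3.65 CPM in ENO2-low (3.003 ± 0.19), with 16.4 to 29.1 CPM in Control. SRGN, the proteoglycan of secretory granules, was at 20.7, 27.3 and 32.1 CPM in ENO2-high and 0.887, 3.73, 1.70 and 3.19 CPM in ENO2-low (3.37 ± 0.26), and here Control, at 38.1 to 53.8 CPM, was above both. The ENO2-low libraries thus held little SRGN, while ENO2-high was near the other KO libraries, whose median was 25.6 CPM. BMX, a TEC-family kinase gene, was at 23.8, 27.6 and 35.1 CPM in ENO2-high and 5.32, 3.73, 1.70 and 4.11 CPM in ENO2-low (2.97 ± 0.24), and its Control libraries spanned 5.06 to 58.2 CPM. PADI4, which codes for a peptidyl arginine deiminase of granulocytes, was at 16.7, 19.3 and 26.3 CPM in ENO2-high, 0.887, 2.49, 1.70 and 1.37 CPM in ENO2-low and at most 1.12 CPM in Control. The log2 fold change of PADI4 was 3.604 ± 0.31.

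The remaining genes of the 15 had log2 fold changes of 2.49 to 4.26. TLE4, a Groucho-type corepressor, was at 17.6, 23.8 and 28.02 CPM in ENO2-high and 0.887, 0.622, 3.40 and 1.83 CPM in ENO2-low (3.61 ± 0.30), and the other KO median was 19.03 CPM. ACSS1, the mitochondrial acetyl-CoA synthetase, was at 18.98, 23.7 and 30.1 CPM in ENO2-high and 2.66, 0, 3.40 and 1.37 CPM in ENO2-low (3.72 ± 0.30). SLC6A19, a transporter of neutral amino acids, was at 50.2, 57.98 and 67.8 CPM in ENO2-high and 6.21, 13.1, 12.5 and 8.21 CPM in ENO2-low (2.52 ± 0.16). RBPMS2, an RNA-binding protein gene, was at 43.5, 52.0 and 63.6 CPM in ENO2-high and 5.32, 6.22, 10.2 and 6.85 CPM in ENO2-low (2.82 ± 0.18). Both sides were above the Control maximum of RBPMS2, 3.10 CPM, and the gene was also higher in the other KO than in the Control libraries (2.62 ± 0.29, adjusted p = 4.4e-08, edgeR). HEPACAM2 (3.31 ± 0.22), SH3GL3 (2.87 ± 0.24), PPP2R3A (2.54 ± 0.30) and METTL7A (2.49 ± 0.16) completed the group, with RHOXF1-AS1 (4.26 ± 0.37), an antisense transcript whose counts cannot be told from its overlapping partner if strand was not used in counting.

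Among the genes reported here, the one most strongly lower in ENO2-high was CLCA1, a secreted regulator of chloride channels. It was at 5.04, 2.91, 1.59, 1.87, 5.64 and 4.74 CPM in the ENO2-high libraries and at 176, 175, 156 and 139 CPM in the ENO2-low libraries (-5.42 ± 0.15). ENO2-high was near the Control range of 1.71 to 4.21 CPM, and the other KO libraries lay between, at a median of 12.5 CPM. They were higher than Control by 2.09 ± 0.20, adjusted p = 2.53e-09 (edgeR's quasi-likelihood test, log2 fold change ± SE).

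PTPRC, which codes for the leukocyte phosphatase CD45, was at 4.97, 6.46 and 7.84 CPM in ENO2-high and 50.6, 69.6, 64.5 and 73.5 CPM in ENO2-low (-3.33 ± 0.16), on either side of the Control range of 8.56 to 22.9 CPM. CD44, the hyaluronan receptor, was at 9.33, 14.3 and 24.1 CPM in ENO2-high and 136, 162.2, 127 and 108 CPM in ENO2-low (-3.10 ± 0.14), and Control spanned 10.1 to 82.3 CPM. CAV1, the coat protein of caveolae, was at 1.59, 3.22 and 5.04 CPM in ENO2-high and 43.5, 32.3, 32.8 and 34.7 CPM in ENO2-low (-3.37 ± 0.22). All 4 ENO2-low libraries were above the Control maximum of CAV1, 11.4 CPM. SLC44A1, a choline transporter, was at 3.73, 5.17 and 6.36 CPM in ENO2-high and 42.6, 55.3, 40.2 and 30.1 CPM in ENO2-low (-3.004 ± 0.20), against 43.97 to 76.8 CPM in Control. UTRN, which codes for utrophin, a link between actin and the membrane, was at 0.795, 2.33 and 2.51 CPM in ENO2-high and 36.4, 32.9, 33.4 and 35.1 CPM in ENO2-low (-3.97 ± 0.23).

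KYNU, the kynureninase of tryptophan breakdown, was at 0.627, 1.59 and 2.80 CPM in ENO2-high and 54.1, 42.9, 35.7 and 47.5 CPM in ENO2-low (-4.71 ± 0.24). Its ENO2-high libraries were at the lower end of Control, 1.10 to 17.1 CPM, while the other KO libraries were higher than Control (1.79 ± 0.31, adjusted p = 0.0001). ZFP42, known as the stem cell factor REX1, was at 2.80, 3.98 and 5.02 CPM in ENO2-high and 79.9, 80.8, 84.4 and 89.4 CPM in ENO2-low (-4.39 ± 0.16). CD163L1 (-4.88 ± 0.26), LINC02434 (-3.76 ± 0.23), MAGEB1 (-2.98 ± 0.24) and TUBA3C (-2.98 ± 0.19) were lower as well. TUBA3C and the MAGE genes have near-identical relatives, so reads may be split or shared between copies.

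**Figure D2:**
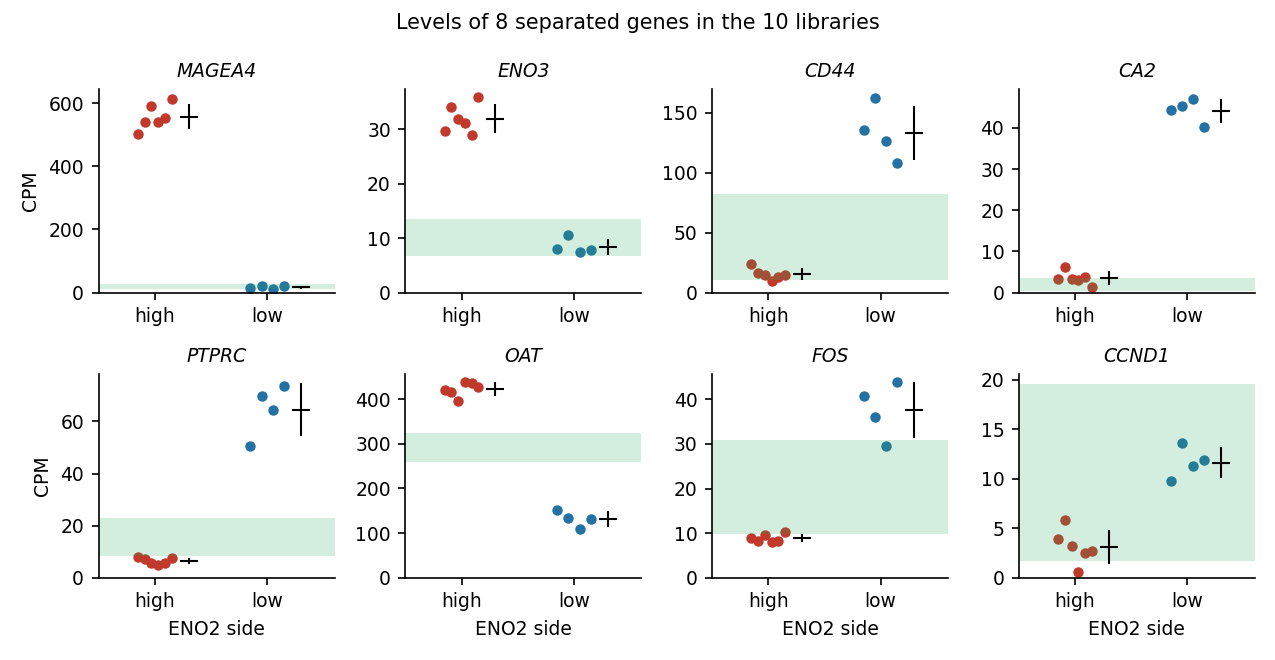
CPM after TMM scaling (vertical axes) of 8 separated genes in each of the 6 ENO2-high and 4 ENO2-low libraries, with the mean and SD beside the points and the range of the 11 Control libraries as a green band. The groups did not overlap in any panel, and for OAT the sides lay on opposite sides of the Control band.

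Separated genes lay together on the chromosomes. This was examined by the median log2 fold change in 274 windows of 10 Mb of the nuclear chromosomes with at least 10 tested genes each, and the places and the genes named for them were chosen after these values were seen. All 30 windows of chromosomes 4 and 8 had a median below 0. Of the 34 windows with a median below -0.3, 29 were on these chromosomes, and the only 2 of the 274 above 0.3 were the last ones of chromosome 10. On chromosome 4, 100 of 340 tested genes were separated, 99 of them lower in ENO2-high, and the median was -0.46. On chromosome 8, 121 of 317 were separated, 118 of them lower, and the median was -0.47.

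Compared with the mean of the Control libraries, it was the ENO2-high side that stood apart on chromosomes 4 and 8. The median over their genes was -0.52 to -0.42 in the 6 ENO2-high libraries and -0.07 to -0.01 in the 4 ENO2-low libraries on the log2 scale. The other KO libraries lay from -0.04 to 0.10 and the single Control libraries from -0.07 to 0.06. Among GC-rich barcodes alone the medians between the sides were -0.44 on chromosome 4 and -0.48 on chromosome 8.

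At the end of chromosome 10 it was the ENO2-low side that stood apart. Of the 32 tested genes that start beyond position 120000000, 25 were separated and all 25 were higher in ENO2-high, with a median of 0.90. Against Control the ENO2-low libraries were at -0.91 to -0.82 and the ENO2-high libraries at -0.05 to 0.13, while the other KO libraries were at -0.10 to 0.12. On the centromere side of this stretch, WDR11 (chromosome 10, 120851305 to 120909524) was at 38.6 to 48.1 CPM in ENO2-high and 47.9, 42.3, 42.5 and 45.6 CPM in ENO2-low, and these ranges overlapped. The first separated gene was ATE1, an arginyltransferase gene that starts at 121709393, with a log2 fold change of 0.80 ± 0.23. NSMCE4A (chromosome 10, 121957091 to 121975217), a subunit of the SMC5/6 complex, was at 42.7, 47.3 and 53.5 CPM in ENO2-high and 29.3, 25.5, 19.2 and 21.4 CPM in ENO2-low (1.004 ± 0.14). From there to the last tested gene, which ends at 133420271, no gene was separated in the other direction.

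The genes of this stretch have unrelated functions. OAT, the ornithine aminotransferase of mitochondria, was at 421, 416, 397, 439, 436 and 426 CPM in the ENO2-high libraries and 152, 134, 109.8 and 131 CPM in the ENO2-low libraries (1.69 ± 0.06). The sides lay above and below the Control range of 259.5 to 324 CPM. MKI67, the proliferation marker Ki-67, was at 134, 139.5 and 157 CPM in ENO2-high and 66.5, 62.2, 69.1 and 64.8 CPM in ENO2-low (1.12 ± 0.08). BNIP3, a mitophagy receptor induced by hypoxia, was at 69.95, 74.2 and 88.3 CPM in ENO2-high and 39.9, 29.8, 31.7 and 36.5 CPM in ENO2-low (1.15 ± 0.11). UROS, the heme synthesis enzyme uroporphyrinogen III synthase, was at 62.4, 69.3 and 74.3 CPM in ENO2-high and 23.1, 24.9, 20.4 and 25.6 CPM in ENO2-low (1.54 ± 0.12). BUB3, a spindle checkpoint protein, was at 212, 225 and 229 CPM in ENO2-high and 131, 112, 137 and 132 CPM in ENO2-low (0.78 ± 0.07). ECHS1 (1.01 ± 0.09), which codes for a mitochondrial enoyl-CoA hydratase, and ADAM8 (2.18 ± 0.28), a membrane metalloprotease, lie near the end.

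A smaller block was seen on chromosome 14. Of 130 tested genes that start beyond position 70000000, 39 were separated, all 39 lower in ENO2-high, with a median of -0.43, whereas 7 of the 189 before it were separated, with a median of 0.01. Here ENO2-low was above Control, at 0.43 to 0.49, and ENO2-high was near it, at 0.03 to 0.04. FOS, an immediate early gene that lies there, was at 8.08, 8.61 and 10.2 CPM in ENO2-high and 40.8, 36.1, 29.4 and 43.8 CPM in ENO2-low (-2.10 ± 0.17). PNMA1, also there, was at 24.6, 26.6 and 37.002 CPM in ENO2-high and 64.8, 57.2, 58.9 and 62.1 CPM in ENO2-low (-1.04 ± 0.12), and Control was at 20.02 to 29.0 CPM. In the window of chromosome 19 from 10 to 20 Mb, 18 of 151 genes were separated, all 18 lower in ENO2-high, with a median of -0.31, and the ENO2-high libraries were at -0.37 to -0.22 against Control. This share of 11.9% was near the background, and in the neighbouring window from the start of the chromosome to 10 Mb it was 17.9%, or 25 of 140 genes, 20 lower and 5 higher, with a median of -0.22.

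These 5 stretches held 303 of the 1128 separated genes (26.9%), 29 higher and 274 lower. Outside them 825 were separated, 415 higher and 410 lower. Of the tested genes, 33.6% were separated on chromosomes 4 and 8, 78.1% at the end of chromosome 10 and 30.0% at the end of 14. In the chromosome 19 window the share was 11.9%, against 9.26% of the 8786 genes outside the 5 stretches and the mitochondrial genome. The measurements are of RNA, and the number of DNA copies was not measured.

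**Figure D3:**
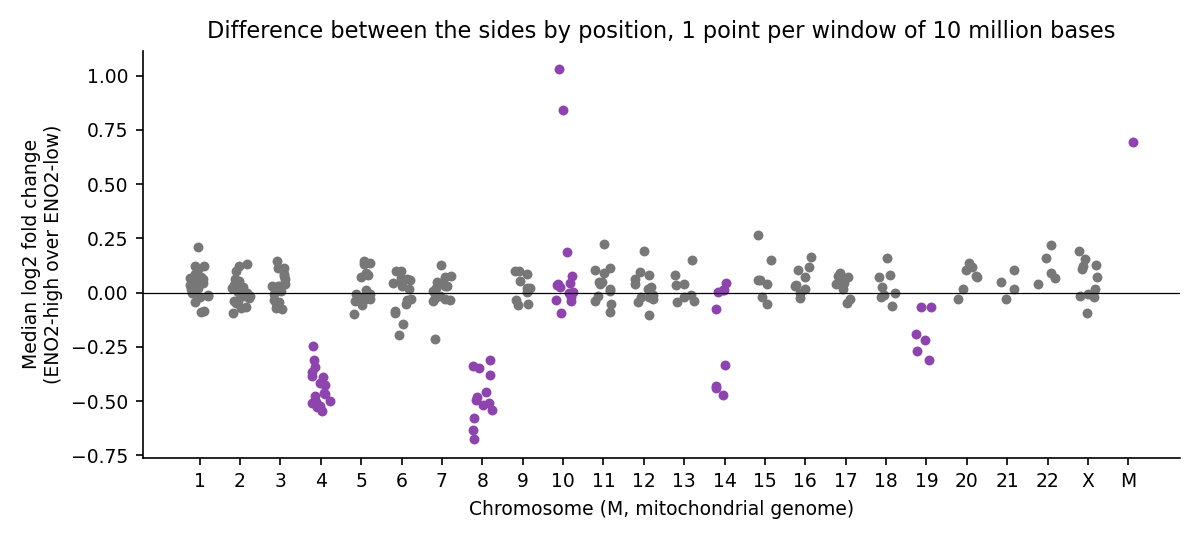
Median log2 fold change of ENO2-high over ENO2-low (vertical axis) for each window of 10 Mb, grouped by chromosome (horizontal axis), with the chromosomes named in the text and the mitochondrial genome in purple. The windows of chromosomes 4 and 8 all lie below 0, and 2 windows of chromosome 10 and the mitochondrial genome lie above 0.3.

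**Figure D4:**
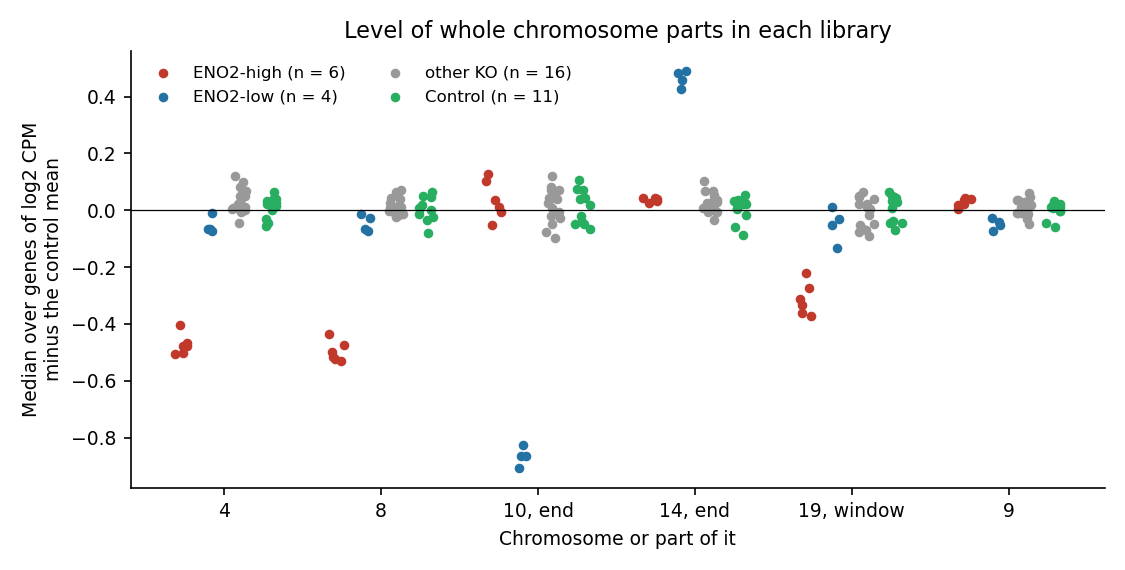
Median over genes of log2 CPM minus the Control mean (vertical axis) for each library on chromosomes 4 and 8, at the end of chromosomes 10 and 14, in the chromosome 19 window and, for comparison, on chromosome 9. The ENO2-high libraries are low on chromosomes 4 and 8 and the ENO2-low libraries at the end of chromosome 10, while the other KO libraries stay near 0 in all of them.

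Gene lists were described by how many of their tested members were separated, against the 11.5% of all genes. The list of genes of the amino acid and stress response driven by the transcription factor ATF4 had the most in 1 direction. Of its 17 tested members, 10 were separated, all 10 lower in ENO2-high, and the median of the list was -0.67 against -0.001 for all genes. PSAT1, an enzyme of serine synthesis, was at 43.7, 34.5, 34.2, 34.2, 36.4 and 31.9 CPM in the ENO2-high libraries and 80.7, 95.7, 95.7 and 92.2 CPM in the ENO2-low libraries (-1.36 ± 0.10). Both sides were below the Control range of 106 to 159.9 CPM, and PSAT1 was also lower in the other KO than in the Control libraries (-0.78 ± 0.12, adjusted p = 2.23e-05).

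TRIB3, a pseudokinase induced in stress, was at 144, 149 and 165 CPM in ENO2-high and 259, 332, 318 and 345 CPM in ENO2-low (-1.07 ± 0.06), with Control at 118 to 243 CPM. ATF3, a stress transcription factor, was at 13.6, 15.6 and 18.5 CPM in ENO2-high and 36.4, 35.4, 46.99 and 41.98 CPM in ENO2-low (-1.35 ± 0.15). ASNS, asparagine synthetase, was at 181, 223 and 239 CPM in ENO2-high and 361, 352, 427 and 399 CPM in ENO2-low (-0.84 ± 0.06). The separated members thus included enzymes, transporters and regulators alike. The amino acid transporter pair SLC7A5 (-0.91 ± 0.06) and SLC3A2 (-0.61 ± 0.05), the cystine transporter SLC7A11 (-0.95 ± 0.11), SESN2 (-0.67 ± 0.07), DDIT3 (-0.55 ± 0.12) and CEBPG (-0.54 ± 0.08) were also lower. SLC7A11 lies on chromosome 4, and the other 9 outside the stretches described above. ATF4 itself was at 229.5 to 264 CPM in ENO2-high and 273, 279, 322 and 293 CPM in ENO2-low, and its log2 fold change of -0.25 ± 0.06 was under the limit. PHGDH, the first enzyme of serine synthesis, was at 149 to 203 and 152 to 209 CPM, so the sides overlapped.

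The mitochondrial genome differed in the other direction. Of 13 listed genes encoded in it, 7 were separated, all 7 higher in ENO2-high, with a median of 0.58. MT-ND5, a subunit of complex I, was at 3502, 2954, 3186, 2401, 2460.3 and 2856 CPM in the ENO2-high libraries and 975.1, 1074, 893 and 856 CPM in the ENO2-low libraries (1.597 ± 0.13). ENO2-high lay around the lower end of Control (2653 to 5025 CPM) and ENO2-low far below it. MT-RNR1, the small ribosomal RNA, was at 2305, 2942 and 3136 CPM in ENO2-high and 1170.3, 1376, 1135 and 1049.6 CPM in ENO2-low (1.24 ± 0.12), and MT-CYB, cytochrome b, differed by 0.75 ± 0.07. MT-RNR2, the large ribosomal RNA and the most abundant of these, overlapped between the sides at 26759 to 35676 and 26974 to 29136 CPM. MT-CO1 overlapped too, at 2309.7 to 6298 and 3696 to 5153 CPM. The genes of this genome were thus unequally separated. Mitochondrially encoded genes made up 6.24 to 8.09% of molecules in ENO2-high, 5.42 to 5.93% in ENO2-low and 4.63 to 6.96% in the other KO libraries. Over all 24 tested genes of this genome, the median against Control was -1.01 to -0.75 in ENO2-low. In the other KO libraries it was -0.86 to 0.04, so low levels were not particular to ENO2-low. The median between the sides over these 24 genes was 0.70, and 0.38 among GC-rich barcodes alone. Mitochondrial RNA share can move with RNA quality, and its part in the result was not tested. Of 30 nuclear genes for respiration, 0 were separated, and 26 had a log2 fold change above 0, with a median of 0.24. Some had ranges apart in either direction with a change under the limit, such as SDHA (0.44 ± 0.08), UQCRC1 (0.44 ± 0.07) and COX6C (-0.43 ± 0.05).

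Glycolysis as a list did not separate the sides. Of 26 tested members, 3 were separated, all 3 higher in ENO2-high, which is 11.5% and equal to the background, and ENO2 is one of them by choice. ENO3 was the strongest, at 29.7, 34.0, 31.8, 31.1, 28.8 and 35.9 CPM in the ENO2-high libraries and 7.99, 10.6, 7.36 and 7.76 CPM in the ENO2-low libraries (1.91 ± 0.18). The ENO2-low values lay within the Control range of 6.69 to 13.4 CPM and all ENO2-high values above it, and in the other KO libraries ENO3 was not called against Control (0.19 ± 0.13, adjusted p = 0.272). ENO1 was far more abundant, at 2374 to 2547 and 2282 to 2531 CPM, and overlapped. The third was PFKFB4 (0.51 ± 0.25), a regulator of phosphofructokinase. Other members had ranges apart in either direction with a change under the limit, such as TPI1 (0.43 ± 0.05), PGK1 (0.24 ± 0.05) and SLC16A1 (-0.23 ± 0.06).

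**Figure D5:**
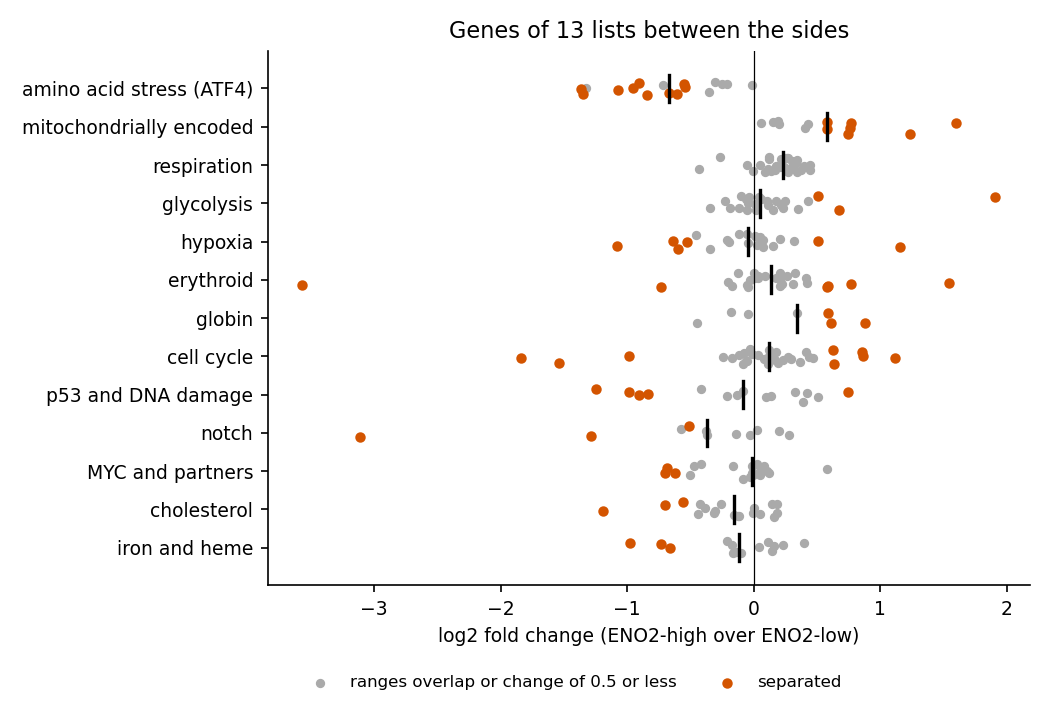
Log2 fold change of ENO2-high over ENO2-low (horizontal axis) for each tested gene of 13 lists (rows), with separated genes in orange and the list median as a black line. The separated ATF4 genes all lie below 0 and the separated mitochondrially encoded genes all above it.

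The other glucose genes the study names were close between the sides. SLC2A3, the gene of glucose transporter 3, was at 139, 159 and 198 CPM in ENO2-high and 185, 236, 196 and 195 CPM in ENO2-low (-0.34 ± 0.07), and the ranges overlapped. HK1 (0.16 ± 0.05), PFKM (0.04 ± 0.10), PFKP (-0.10 ± 0.10), PGM2 (-0.04 ± 0.07) and PGM3 (0.11 ± 0.10) were at 0.16 or less in size. PKM, pyruvate kinase, was apart at 333 to 349 against 267, 292, 268 and 237 CPM, but its difference of 0.35 ± 0.06 was under the limit. NOTCH3 was at 10.6 to 21.9 CPM in ENO2-high and 15.97 to 26.7 CPM in ENO2-low, both above every Control library (0.743 to 3.42 CPM). ZBTB7A itself was lower in ENO2-high, at 41.5, 43.7, 50.9, 45.4, 47.04 and 48.8 CPM, than in ENO2-low, at 55.0, 64.02, 70.2 and 66.2 CPM (-0.51 ± 0.10), and Control, at 35.9 to 72.7 CPM, covered all 10 values.

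Genes induced by low oxygen were split. Of 21 tested, 2 were higher (BNIP3 and PFKFB4) and 4 lower in ENO2-high, with a median of -0.05. VEGFA, the vascular growth factor, was at 42.6, 46.4 and 61.2 CPM in ENO2-high and 64.8, 69.0, 81.0 and 78.0 CPM in ENO2-low (-0.64 ± 0.10). KDM3A (-0.60 ± 0.13), BNIP3L (-0.53 ± 0.09) and DDIT4 (-1.08 ± 0.20) were lower too. For DDIT4 the sides were just apart when the 10 libraries were normalized alone and met on the scale of all 37 libraries, at 40.9 CPM at the top of ENO2-high and 40.8 CPM at the bottom of ENO2-low. BNIP3 lies at the end of chromosome 10 and BNIP3L on chromosome 8.

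Among 28 tested erythroid genes, 4 were higher and 2 lower in ENO2-high, with a median of 0.13. ALAS2, the erythroid enzyme that starts heme synthesis, was at 254, 302 and 311 CPM in ENO2-high and 147, 179.6, 183 and 167 CPM in ENO2-low (0.77 ± 0.06), and both sides exceeded the Control maximum of 91.9 CPM. UROS, given above, was higher too. GYPC, a glycophorin of the red cell membrane, was at 319.6, 356 and 371 CPM in ENO2-high and 179, 258, 259.9 and 227 CPM in ENO2-low (0.58 ± 0.06). GYPB was at 185, 193 and 235 CPM in ENO2-high and 115, 126, 140.4 and 141 CPM in ENO2-low (0.59 ± 0.07), and it was the single separated gene of chromosome 4 that was higher in ENO2-high. CA2, the red cell carbonic anhydrase, was at 3.36, 6.31, 3.18, 3.11, 3.76 and 1.36 CPM in the ENO2-high libraries and 44.4, 45.4, 46.99 and 40.2 CPM in the ENO2-low libraries (-3.57 ± 0.20), which put ENO2-low above every Control library (0.389 to 3.42 CPM). SLC25A37, the mitochondrial iron importer, was at 172, 203 and 223 CPM in ENO2-high and 333, 367, 337 and 293 CPM in ENO2-low (-0.73 ± 0.06), and it lies on chromosome 8 with CA2.

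Of 7 tested globin genes, 3 were higher in ENO2-high, HBD (0.88 ± 0.24), HBQ1 (0.61 ± 0.09) and HBA2 (0.59 ± 0.12), with a median of 0.35. As for DDIT4, the sides of HBD met on the scale of all 37 libraries, at 9.53 CPM at the bottom of ENO2-high and 9.58 CPM at the top of ENO2-low. HBA2 was at 56.9, 62.7 and 69.2 CPM in ENO2-high and 30.2, 42.3, 56.05 and 35.6 CPM in ENO2-low, and it shares near-identical sequence with HBA1. The other tested globin genes were not separated. HBG2 was at 2631 to 3224 CPM in ENO2-high and 3258, 4301, 4439 and 3595 CPM in ENO2-low. These ranges were apart, but the log2 fold change of -0.45 ± 0.08 was under the limit. HBG1 (1623 to 1984 and 1491 to 2321 CPM) and HBZ (701 to 904 and 672 to 1018 CPM) overlapped, as did HBA1 (0.35 ± 0.10). HBG1 and HBG2 are near-identical, so their counts may be shared. Other defining markers of K562 were present in all 10 libraries: TFRC was at 455 to 482 and 495 to 547 CPM, GATA1 at 281 to 309.8 and 229.8 to 279.7 CPM and KLF1 at 136 to 175 and 140.5 to 168 CPM.

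Markers of other lineages were examined gene by gene and in sum, and in these bulk lysates a change in the share of cells and a change per cell cannot be told apart. Of 7 tested megakaryocyte genes, 3 were higher and 1 lower in ENO2-high. ITGA2B, the platelet integrin alpha IIb, was at 22.97, 16.998, 15.1, 8.08, 9.41 and 16.3 CPM in the ENO2-high libraries and 0.887, 1.86, 1.70 and 2.74 CPM in the ENO2-low libraries (2.89 ± 0.34). GP1BA, a platelet receptor subunit, was at 29.2, 34.0 and 42.7 CPM in ENO2-high and 12.4, 19.3, 15.3 and 14.6 CPM in ENO2-low (1.17 ± 0.16), and both sides were above the Control maximum of 2.14 CPM. MEIS1 was higher (1.25 ± 0.34) and CD9 lower (-0.77 ± 0.12). The summed level of all 16 megakaryocyte markers was nevertheless alike, 247 to 292 CPM in ENO2-high and 247 to 298 CPM in ENO2-low. Its largest part was GATA2, at means of 109 and 113 CPM. PF4, PPBP, VWF and ITGB3 were at 0 in every ENO2-high library, which allows up to 0.314 CPM over that side. Of these genes, only PPBP was also at 0 in every ENO2-low library.

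The lymphoid markers summed to 9.49 to 15.5 CPM in ENO2-high and 63.9 to 92.6 CPM in ENO2-low, against 25.7 to 92.6 CPM in Control. PTPRC made up most of this in ENO2-low, and CD3E and CD2 were at 0 on both sides, which allows up to 0.464 CPM on the ENO2-low side. CD3D was at 0.678 to 4.37 CPM in ENO2-high and 10.6, 11.8, 7.93 and 15.5 CPM in ENO2-low (-1.88 ± 0.30). The Control mean of CD3D, 27.84 CPM, was above both sides. The mean of PTPRC was 64.55 CPM in ENO2-low and 66.00 CPM in the other KO libraries, so its level was not particular to ENO2-low. The 11 myeloid markers summed to 63.6 to 76.6 CPM in ENO2-high and 47.9 to 61.5 CPM in ENO2-low, mostly from CD33. The 8 fibroblast markers summed to 5.02 to 11.9 CPM in ENO2-high and 15.3 to 20.4 CPM in ENO2-low, mostly from FN1 (-1.21 ± 0.26). Apart from ENO2, the neuronal markers summed to 13.1 to 19.3 CPM and 1.70 to 8.08 CPM, nearly all from SYP, the synaptic vesicle protein, at 12.7 to 19.3 and 1.70 to 5.32 CPM (2.03 ± 0.27). The neuronal markers MAP2 and UCHL1 were at 0 on both sides. In each of these lists 1 gene carried most of the sum, and the part of other cells in the result was not tested.

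The 3 D-type cyclins, which act in the G1 phase, went apart. CCND2 was at 42.03, 50.99, 49.3, 31.1, 51.4 and 32.5 CPM in the ENO2-high libraries and 138, 132, 107 and 124 CPM in the ENO2-low libraries (-1.53 ± 0.10), and ENO2-high lay below every Control library (106 to 192 CPM). CCND1 was lower as well, at 0.622 to 5.83 against 9.76 to 13.7 CPM (-1.84 ± 0.30). CCND3 was higher, at 611, 641 and 657 CPM in ENO2-high and 395, 375, 435 and 431 CPM in ENO2-low (0.63 ± 0.05), and both sides were above every Control library (132 to 286 CPM). Of the 33 tested cell cycle genes, 5 were higher and 3 lower, with a median of 0.12. E2F2 (0.86 ± 0.14), the CDK inhibitor gene CDKN2C (0.86 ± 0.10), AURKB (0.64 ± 0.11) and MKI67 were higher. CDKN1A, the p21 inhibitor and a p53 target, was at 15.5, 17.8 and 19.3 CPM in ENO2-high and 31.1, 36.7, 34.5 and 34.2 CPM in ENO2-low (-0.98 ± 0.15).

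Of 15 genes of the p53 and DNA damage response, 1 was higher, SESN1 (0.75 ± 0.20), and 4 were lower in ENO2-high. Besides CDKN1A these were the death receptor gene TNFRSF10B (-1.24 ± 0.21), the BH3 gene BBC3 (-0.91 ± 0.13) and GDF15 (-0.84 ± 0.15). The median of the list was -0.08, and 0.13 with the barcode composition as a covariate. K562 cells are known to lack functional p53. TNFRSF10B lies on chromosome 8 and GDF15 in the chromosome 19 window.

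Of 11 tested Notch pathway genes, 3 were lower in ENO2-high. The receptor gene NOTCH1 was at 10.7, 18.96 and 27.03 CPM in ENO2-high and 47.9, 54.1, 41.9 and 40.2 CPM in ENO2-low (-1.29 ± 0.15). HEY1, a repressor that Notch signaling induces, was at 3.18, 3.58 and 4.97 CPM in ENO2-high and 37.3, 34.8, 26.6 and 34.2 CPM in ENO2-low (-3.11 ± 0.21). The Control libraries of HEY1 were at 5.07 to 10.3 CPM, above all of ENO2-high and below all of ENO2-low, and the other KO libraries were higher than Control (1.30 ± 0.21, adjusted p = 3.46e-05). MAML3, a coactivator of Notch, differed by -0.51 ± 0.19. HEY1 lies on chromosome 8 and MAML3 on chromosome 4.

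Cholesterol, iron and metal genes were lower where they were separated. FDFT1 (-0.70 ± 0.05) and DHCR7 (-0.55 ± 0.07), enzymes of cholesterol synthesis, were lower, and the median of the 19 tested cholesterol genes was -0.15. FTL, the ferritin light chain, was at 1758, 1848 and 2022 CPM in ENO2-high and 2857, 2923, 3045 and 2902 CPM in ENO2-low (-0.66 ± 0.05). SLC39A14, a zinc and iron importer, was at 29.5, 34.9 and 38.6 CPM in ENO2-high and 73.6, 58.4, 63.4 and 74.4 CPM in ENO2-low (-0.98 ± 0.11). With SLC25A37 they were the 3 of 14 iron and heme genes that were separated, with a list median of -0.12. MT2A, a metallothionein, was at 1.87 to 4.74 against 7.30 to 12.4 CPM (-1.68 ± 0.32), as the single one of 7. FDFT1 and SLC39A14 lie on chromosome 8.

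In the remaining lists few genes were separated. MYC, which lies on chromosome 8, was at 274, 301 and 348 CPM in ENO2-high and 388, 406, 374 and 431 CPM in ENO2-low (-0.41 ± 0.06), under the limit, and all 10 libraries were below every Control library (511 to 859.7 CPM). Of 19 tested genes of the MYC network, MXD4 (-0.70 ± 0.16), MXD1 (-0.68 ± 0.16) and ARRDC4 (-0.62 ± 0.16) were lower and 0 higher, and MXD4 lies on chromosome 4. Of 13 TAM receptor and adhesion genes, L1CAM (0.81 ± 0.19) was higher and CD44 and AXL (-0.76 ± 0.16) lower. Of 7 interferon response genes, ISG15 (0.92 ± 0.12) and B2M (0.61 ± 0.08) were higher. H2BC21 (0.88 ± 0.12) was the 1 of 5 histone genes, and 0 of the 8 LIN28 and IGF2BP oncofetal genes and 0 of 1 myeloid gene tested were separated.

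The 16 other KO and the 11 Control libraries, which the split did not use, were compared by their labels with edgeR's quasi-likelihood test. Of 10942 genes tested, 930 differed (8.5%) at an adjusted p below 0.05 and a log2 fold change above 0.5 in size, 570 higher (5.21%) and 360 lower (3.29%) in KO. Of the 444 genes higher in ENO2-high, 420 were in this test, and 76 were called higher and 40 lower in KO. Of the 684 genes lower in ENO2-high, 659 were in it, with 80 called higher and 45 lower. The shares called, 18.1% and 9.52% of the first set and 12.1% and 6.83% of the second, compare with 4.94% and 2.50% of the 9708 genes that were in both fits. Both sets thus held genes that were higher and genes that were lower in KO, and neither matched a single direction of the KO comparison.

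Relative to the range of the 11 Control libraries, the separated genes divided by which side departed. For 401 of the 1128 genes (35.5%) every ENO2-high library and not every ENO2-low library was outside the range, and for 250 (22.2%) the reverse held. Both sides were outside it in the same direction for 123 genes and in opposite directions for 21, and neither was for 333 (29.5%). Over all 9780 genes these shares were 11.1% for ENO2-high alone, 8.15% for ENO2-low alone, 0.256% for opposite directions and 72.5% for neither. Both sides were outside in the same direction for 778 of the 9780, which compares with the 123 of 1128. Departures from Control were thus found on both sides of the split.

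Barcode composition was also set against these genes in libraries outside the 10. In a fit over the 16 other KO libraries, the median log2 fold change per G or C base was -0.005 for the genes higher in ENO2-high, 0.017 for those lower and 0.002 for all genes. With barcode composition as a covariate among the 10, 1121 genes were separated, 1018 of them among the 1128. This count says little about barcode composition, as the ranges were of unadjusted values and only the fitted fold change could move.

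ENO2 itself was followed across all 26 KO libraries. The genes most like it by Spearman's rho of log2 CPM were PELI2 (0.938), an E3 ligase of Toll-like receptor signaling, the tetraspanin CD63 (0.911), the deubiquitinase OTUD5 (0.910), CMAS (0.908), which activates sialic acid, and APOC1 (-0.903), an apolipoprotein. Within the 16 other KO libraries the values were 0.856, 0.724, 0.768, 0.712 and -0.835. These are descriptions over libraries that may share clones, and the same genes were picked for their likeness. Between the sides none of the 5 was separated: PELI2 was at 44.3 to 52.9 CPM in ENO2-high and 39.04, 35.4, 42.5 and 39.7 CPM in ENO2-low, and CD63 was at 955 to 1005 and 857, 757, 785 and 796 CPM. The log2 fold changes of the 5 were -0.10 to 0.27.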

How the data were processed

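Bulk SCRB-seq libraries of K562 cells were made from lysates of counted cells with oligo-dT primers that carry a well barcode and a unique molecular identifier (UMI). Reads were aligned by the authors to hg38 (STAR 2.6.0a per the submitters' processing notes), and zUMIs gave UMI counts on the Ensembl GRCh38.84 annotation. The deposited counts cover 32055 genes and were not normalized. UMIs remove PCR copies, and reads come from the 3′ end, so counts do not depend on transcript length and do not show coding lesions. Whether counting used strand is not given in the sources used here. Columns were matched to samples by barcode. Symbols and hg38 positions came from GENCODE 44, a later annotation of the same build, which paired 31323 identifiers.

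The 10 libraries were selected as described, by plain CPM. Their 6 and 4 were fitted with edgeR 4.0.16 in R 4.3.3 (default filter on low counts, TMM, robust quasi-likelihood fit), and SE is the absolute log2 fold change over the square root of F. Other CPM values are after TMM over all 37 libraries, and separation was judged on log2 CPM (prior count of 2) after TMM over the 10. The 16 other KO and 11 Control libraries were compared with edgeR's quasi-likelihood test, Benjamini-Hochberg adjusted over 10942 genes. The median log2 fold change between the sides was -0.001. Sensitivity was checked with limma 3.58.1 and DESeq2 1.42.0. On simulated counts for 9634 genes, the definition of separated recovered 100% of genes changed 4-fold and 90.6% of those changed 2-fold between the sides, with 0.18% of unchanged genes. The simulated libraries were drawn independently, with the same spread for all genes and no choice by expression. These rates therefore do not cover libraries that share a clone or sides chosen by ENO2.

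The members, lists and tests were chosen with earlier results of these data known. Genes were named by rule: ENO2, SLC2A1 and ZBTB7A, genes the study names, the 15 separated genes most strongly higher and the 15 most strongly lower (mean of at least 10 CPM), separated list members, and the 5 genes most like ENO2. Genes given as context, among them OAT, WDR11, NSMCE4A, ATE1, BUB3, ECHS1, ADAM8, FOS, PNMA1, MYC, ATF4, PHGDH, ENO1, MT-RNR2 and MT-CO1, and the K562 markers fall outside it, and several were chosen after their values were seen. A few genes that the rule names are not reported here. The study's other experiments were not analysed here.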

Additional observations from a re-analysis of the deposited data

Results flagged for a closer look

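In 278 groups of 4 or 6 libraries of a side, the gap of the highest or lowest value to the next was compared with the range of the group by Dixon's criterion at 95%, and 10 were past it. Chance alone gives about 1 in 20 groups, so this number is not above that.

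On the ENO2-low side, library CGTGGG held the highest plain ENO2 level, 34.6 CPM against 22.2 to 22.96 CPM in the other 3, the highest MT-ND6, 365 CPM against 328 to 331 CPM, and the lowest APOC1, 311 CPM against 355 to 364 CPM. It was also the shallowest of the 10 libraries, at 1070250 molecules. Library CCGGAC held the lowest DDIT3, 53.2 CPM against 55.9 to 56.1 CPM, and the highest OTUD5, 77.6 CPM against 70.1 to 70.9 CPM. Library CCCACG held the highest TNFRSF10B, 27.3 CPM against 16.9 to 18.1 CPM.

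On the ENO2-high side, library ATTACT held the lowest MT-CO1, 2310 CPM against 4846 to 6298 CPM in the other 5, and the highest CD9, 38.4 CPM against 29.1 to 31.8 CPM. Library CCCTGG held the highest FDFT1, 344 CPM against 277 to 302 CPM. Library TGTTTA held the lowest UTRN, 0.795 CPM against 2.03 to 2.51 CPM. In none of these genes did the library cross to the other side, except MT-CO1, OTUD5 and APOC1, whose sides overlapped.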

How the results depend on the processing

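The count of 1128 separated genes was 419 with a log2 fold change above 1 in size and 2535 among GC-rich barcodes alone, an alternative added after the data were seen, where 1 library stands against 3 and ranges come apart more easily. It was 1160 to 1305 with 1 library left out, of which 1077 to 1104 were among the 1128. Other normalizations, DESeq2, limma-voom, filters, thinning and the barcode covariate kept it within 1.5 times. For the covariate this says little, as the ranges were of unadjusted values and only the fitted fold change could move. AT-rich barcodes alone could not be run, since the ENO2-low side has none. The count of 930 genes between the other KO and the Control libraries was 1478 with every gene of at least 1 count, 551 at a mean of at least 10 CPM, 418 after thinning to the smallest total and 308 with a log2 fold change above 1 in size. It was 868 to 985 with 1 library left out. The higher share of these calls was 61.3%, and 56.0% with limma-voom, 65.3% with library size alone and 55.3% without the filter. The difference in barcode composition of -2.83 bases was -3.5 to -2.67 with 1 library left out, at p 0.0079 to 0.0794, and each of the 5 AT-rich ENO2-high libraries left out gave -2.7 (p = 0.0794, exact permutation). The difference in depth of -24899 molecules was -207106 to 157736 with 1 library left out and changed sign without TGTTTA (48378), CCCTGG (7420.4), CCGGAC (5469.8) or GTTCGA (157736). The medians of 12 of 24 lists moved with the barcode covariate and 3 after thinning. Of these, the p53 and DNA damage list changed sign, from -0.08 to 0.13 with the covariate and 0.07 after thinning, as did the interferon list (0.07 to -0.03 with the covariate), the megakaryocyte list (-0.08 to 0.06 after thinning) and the genes named by the study (0.02 to -0.06 after thinning), and the mitochondrially encoded list was 0.43 in place of 0.58. Of the 135 genes examined, 37 moved among GC-rich barcodes alone, 18 with the covariate and 7 after thinning. The cause was not tested. No paired analysis was possible because the labels give no replicate numbers. ENO2 rested on 35 to 82 molecules per library.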
